A study of Arabidopsis thaliana with 6 samples.

Results

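The arrays with the title codes A3-1 and A3-2 were compared as a pair with the arrays A1-1 and A1-2 of the aeq+ control. These are 2 of the 6 arrays of a series that asks, by its title, what Cdpk6 does in development of Arabidopsis thaliana. The genotype of A3-1 is uncertain. Its title (Kan-3) and its source name place it with aeq+, while its strain label reads cdpk6-yfp-1 and its modification label a cdpk6-yfp transgene. On A3-2 the title reads cdpk-yfp-1, and the strain and modification labels also give cdpk6-yfp-1 and a cdpk6-yfp transgene. Both members were chosen by title code alone, so a value of the pair does not stand for a genotype, and results of both arrays are given apart from those of 1 array. The other groups were line 4 (strain cdpk6-yfp 4, A2-1 and A2-2, a cdpk6-yfp transgene) and the aeq+ control (A1-1 and A1-2, an aequorin transgene), with 2 arrays each. All arrays came from whole seedlings of Col-0, the Columbia accession, held at 22 °C and 100% humidity with 16 h of light. Each biological replicate pooled about 40 plants, and neither seedling age nor the promoter of either transgene was given in the sources used here.

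Calcium-dependent protein kinases are plant enzymes that bind calcium and phosphorylate target proteins when calcium in the cell rises. Aequorin is a jellyfish protein that emits light in response to calcium, and YFP is a yellow fluorescent protein. Cold, touch, wounding and microbial molecules all raise calcium in seedlings within moments, and a shared set of early-response genes follows, among them zinc finger, WRKY and ERF transcription factors, calmodulin-like calcium sensors and U-box ubiquitin ligases.

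The A3 arrays were less alike than the replicates of either other group. Across 13648 probe sets their log2 intensities correlated at r = 0.930, against 0.990 for line 4 and 0.983 for the control. A3-1 correlated with the control arrays at 0.898 and 0.891, and A3-2 at 0.944 and 0.938. Median intensity was 45.5 and 44.7 units on A3-1 and A3-2, 44.7 on each line 4 array, and 44.2 and 46.4 on the control arrays. The 25S ribosomal RNA probe set read 2189.3 and 1073.1 units on A3-1 and A3-2, 275.4 and 915.9 in line 4, and 282.1 and 277.2 in the control. Scanner background averaged 142.62 on A1-2 and between 89.78 and 95.64 on the other arrays. The 3′ to 5′ ratio of actin, which rises as RNA degrades, was 4.67 and 4.17 on A3-1 and A3-2, 3.19 and 3.48 in line 4, and 4.27 and 4.30 in the control. The part of ribosomal signal or RNA quality in the differences below was not tested.

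At a threshold of 2-fold, more probe sets lay low than high on both A3 arrays, while at any size more lay high: both A3 arrays were above both controls at 3909 probe sets (28.6% of 13648) and below both at 2939 (21.5%). A probe set was counted as shifted on an array when it lay at least 2-fold from the mean log2 value of the controls and outside both of them, which is a rule of size with no test. By this rule 246 probe sets (1.8% of 13648) lay lower and 71 (0.52%) lay higher on both A3 arrays. A further 395 (2.89%) lay lower and 292 (2.14%) higher on A3-1 only, and 140 (1.03%) lay lower and 86 (0.63%) higher on A3-2 only. Another 6 (0.044%) lay on opposite sides of the controls. Line 4 by the same rule ran the other way, with 183 probe sets (1.34%) higher and 51 (0.374%) lower on both of its arrays. Counted alone, A3-1 had 643 probe sets lower (4.71%) and 368 higher (2.7%), and A3-2 had 390 lower (2.86%) and 160 higher (1.17%). Differences of at least 8-fold downwards numbered 76 on A3-1 and 18 on A3-2.

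**Figure D1:**
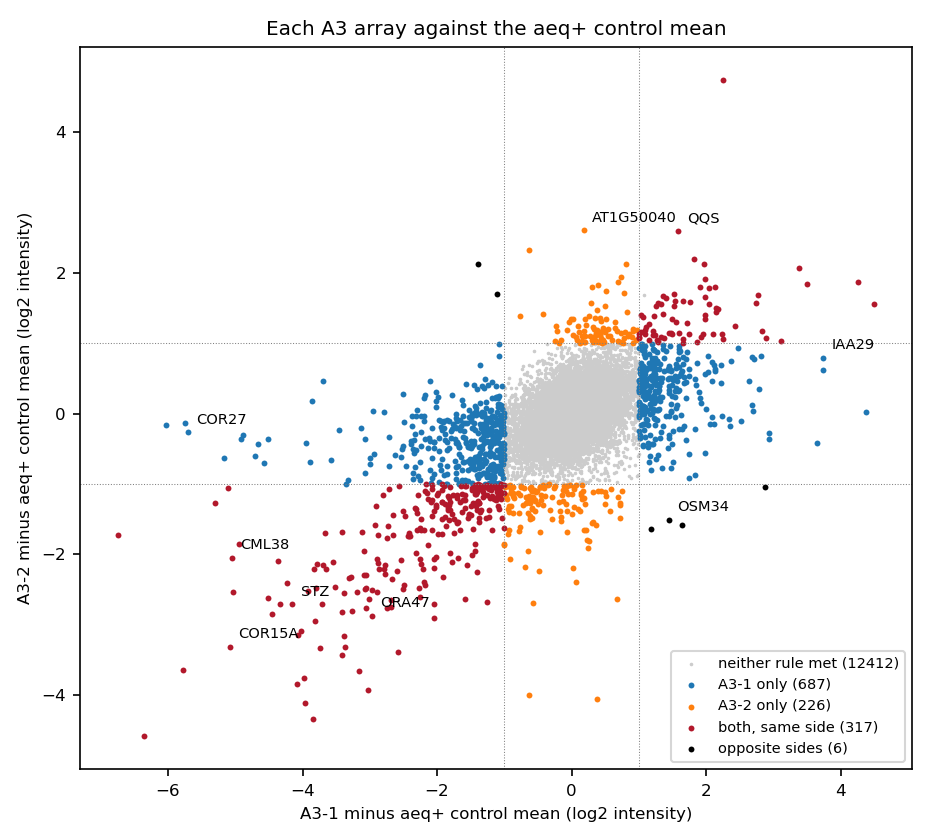
Log2 difference of A3-1 (horizontal axis) and of A3-2 (vertical axis) from the mean of the aeq+ control arrays. Each point is 1 of 13648 probe sets and dotted lines mark 2-fold; 246 of the red points lie in the lower left corner and 71 in the upper right, while the blue points of A3-1 reach further from 0 than the orange points of A3-2.

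Within the shared groups A3-1 was usually the further from the control. Among the 246 shared low probe sets the median log2 difference from the control was -2.003 on A3-1 and -1.498 on A3-2, and A3-1 was the more distant in 194. Of these, 75 lay at least 4-fold below the control on both arrays and 15 at least 8-fold. Among the 71 shared high ones the medians were 1.65 on A3-1 and 1.35 on A3-2, and 2 lay at least 4-fold above on both. Nearest to the threshold for high values, AT2G28780 lay just inside (a log2 difference of 1.01 on the closer array) and AT1G29660 just outside (0.99). On the low side AT3G44630 lay just inside (-1.001) and AT3G57450 just outside (-0.997).

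A test of the pair against the control with limma, over all 13648 probe sets and with 2 arrays on each side, called 178 at an adjusted p under 0.05. Of these 150 fell (1.1% of those tested) and 28 rose (0.205%), with median log2 differences of -1.93 and 1.43. At an unadjusted p under 0.05 there were 2044. The calls overlapped the rule of size, since 146 of the 150 falls and 25 of the 28 rises were shifted on both A3 arrays. The number of calls depended on single arrays. Without either control array no probe set was called, with smallest adjusted p-values of 0.165 and 0.186 and with 853 and 785 at an unadjusted p under 0.05. Without A3-1 1883 probe sets were called (849 higher and 1034 lower), and without A3-2 3415 (1765 higher and 1650 lower). All 178 were among both sets, but the balance of rises and falls among the calls was not that of the pair. By the 2-fold rule of size, falls outnumbered rises on each A3 array alone. The counts were 643 against 368 on A3-1 and 390 against 160 on A3-2.

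The deepest shared low values included genes known to respond early to stress. AT4G37290 encodes the precursor of a small secreted peptide that is induced by microbial molecules. It read 7.0 and 5.0 units on A3-1 and A3-2, 120.0 and 115.6 in line 4, and 93.4 and 109.3 in the control. The A3 arrays were the only low ones, and the pair fell by 4.09 ± 0.31 on the log2 scale against the control (SE, limma adjusted p = 0.00928). AT4G27654, which encodes a small protein of unknown function, read 21.2 and 25.2 units on the A3 arrays, 187.0 and 221.2 in line 4, and 351.1 and 370.8 in the control, and fell by 3.96 ± 0.17 (limma adjusted p = 0.00700). Its neighbour by locus number AT4G27652 read 22.6 and 83.7 units on the A3 arrays, 391.6 and 410.3 in line 4, and 499.1 and 533.9 in the control. No A3 value of AT4G27652 overlapped the other groups, but the distance between both A3 arrays was wide and the difference did not pass (-3.57 ± 0.58, limma adjusted p = 0.0652). In whole seedlings, fewer cells of a type and less RNA per cell cannot be told apart.

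Further genes of defence and stress signalling lay 5-fold or more below the control on each A3 array. AT1G72920, with a TIR domain as found in immune receptors, read 13.6 and 26.0 units on the A3 arrays, 185.3 and 186.4 in line 4, and 211.2 and 232.9 in the control, and fell by 3.56 ± 0.32 on the log2 scale (limma adjusted p = 0.0165). AT5G52050 (DTX50), a MATE-type efflux carrier known to export abscisic acid, read 12.0 and 12.5 units on the A3 arrays, 83.1 and 87.2 in line 4, and 106.6 and 144.6 in the control, and fell by 3.34 ± 0.24 (adjusted p = 0.00804). Both genes kept line 4 and control values within a 2-fold band while the A3 arrays lay far below. AT3G02840, an ARM repeat protein gene known to respond quickly to elicitors, read 15.8 and 20.2 units on the A3 arrays, 179.7 and 153.1 in line 4, and 106.0 and 129.8 in the control, and fell by 2.71 ± 0.23 (limma adjusted p = 0.0132).

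Genes known mostly by their locus behaved alike. AT4G29780 read 54.5 and 102.8 units on the A3 arrays, 641.6 and 576.6 in line 4, and 881.7 and 937.9 in the control, and AT1G35210 read 16.2 and 11.5 units, 129.0 and 134.7, and 149.5 and 141.6 on the same arrays. Against the control AT4G29780 fell by 3.60 ± 0.31 on the log2 scale (limma adjusted p = 0.0132) and AT1G35210 fell by 3.41 ± 0.24 (adjusted p = 0.00803). AT5G38700 fell by 2.79 ± 0.30 (adjusted p = 0.0227) and AT1G15010 by 2.37 ± 0.16 (adjusted p = 0.00803). AR781 was the most even of those named, at 103.1 and 103.6 units on the A3 arrays, 405.4 and 384.2 in line 4, and 479.0 and 478.8 in the control, and fell by 2.21 ± 0.14 (limma adjusted p = 0.00728). AT1G72240 lay at 3.6 units on A3-1 and 20.4 on A3-2, against 104.3 and 98.9 in line 4 and 106.7 and 130.3 in the control. Its difference of -3.78 ± 0.78 did not pass (limma adjusted p = 0.118), and A3-1 lay below A3-2 by 2.50 on the log2 scale (adjusted p = 0.000181).

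**Figure D2:**
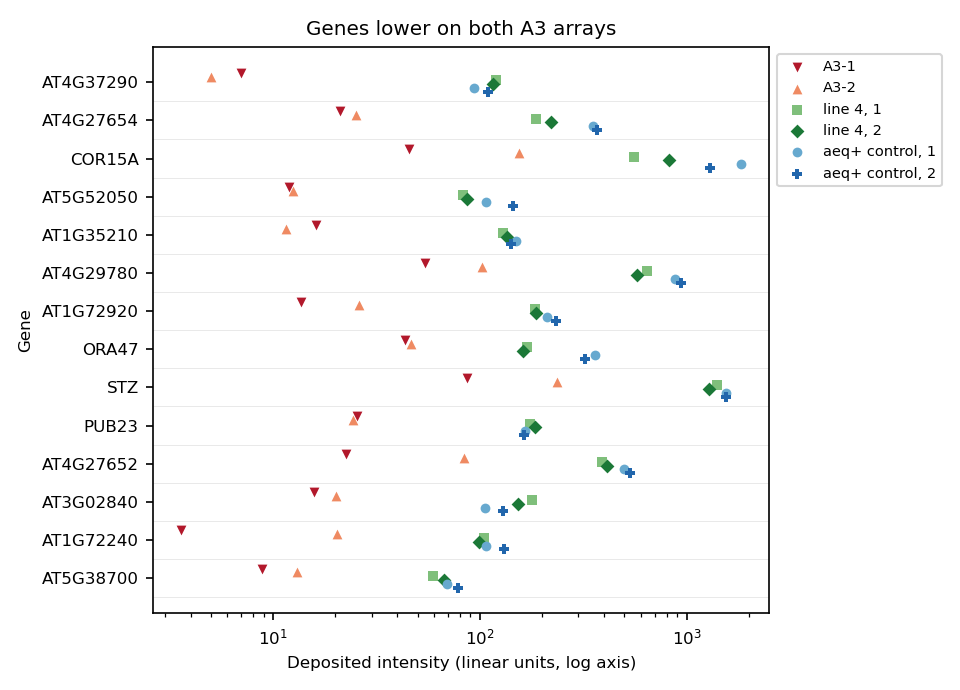
Deposited intensity on each of the 6 arrays for the 14 genes that lay furthest below the control on both A3 arrays, ranked by the A3 array nearer to the control (linear units on a log axis; 1 point an array). In every gene shown both A3 points lie left of all line 4 and control points. Line 4 lies between the A3 arrays and both control points in every gene but AT4G37290, PUB23 and AT3G02840.

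Among transcription factors, the ERF-family gene ORA47, a regulator of jasmonate synthesis, fell. It read 43.6 and 46.6 units on the A3 arrays, 168.7 and 161.6 in line 4, and 358.9 and 324.4 in the control, and fell by 2.92 ± 0.16 on the log2 scale (SE, limma adjusted p = 0.00700). Line 4 lay between the A3 arrays and the control. STZ (ZAT10), a zinc finger repressor induced by cold, salt and drought, read 87.0 and 237.0 units on the A3 arrays, 1396.0 and 1280.0 in line 4, and 1549.4 and 1545.0 in the control, and fell by 3.43 ± 0.45 (limma adjusted p = 0.0411). Both A3 values were low, and A3-1 lay below A3-2 by 1.45 on the log2 scale (adjusted p = 4.73e-05). WRKY53, a factor known from senescence and defence, read 24.2 and 21.6 units on the A3 arrays, 117.5 and 109.5 in line 4, and 86.9 and 83.2 in the control. It fell by 1.90 ± 0.19 (limma adjusted p = 0.0218) and was the only one of 6 measured WRKY genes to pass. The other 5 had log2 differences between -0.44 and 0.66.

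Of the 8 measured members of the list of plant U-box ubiquitin ligases 3 fell and none rose by limma, against 1.1% and 0.205% of all probe sets. The list did not hold AT1G23030 (PUB11), which lay high on A3-2 and is described with the genes of that array. PUB22 and PUB23 are known to dampen immune signalling and drought responses, and PUB19 to dampen responses to abscisic acid. PUB23 read 25.6 and 24.4 units on the A3 arrays, 175.9 and 184.6 in line 4, and 165.7 and 162.9 in the control, and fell by 2.72 ± 0.16 (limma adjusted p = 0.00728). PUB19 read 38.1 and 29.8 units on the A3 arrays, 83.3 and 109.1 in line 4, and 197.4 and 168.7 in the control, and fell by 2.44 ± 0.20 (adjusted p = 0.0122). PUB22 read 32.1 and 42.6 units, 93.4 and 80.1, and 95.1 and 108.9 on the same arrays, and fell by 1.46 ± 0.21 (adjusted p = 0.0477). In each of these 3 genes both A3 values were the lowest of the 6 arrays. PUB24, the closest relative of PUB22 and PUB23, read 47.2 and 48.0 units on the A3 arrays and 48.0 and 57.6 in the control (limma adjusted p = 0.748). The median of all 8 members was -0.12, against 0.05 over all probe sets tested.

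Of 7 measured cold-response genes 4 lay at least 2-fold low on both A3 arrays, against 1.8% of all probe sets. By limma 2 of the 7 fell, against 1.1% of all probe sets. The list named 18 loci, and only these 7 were measured. Like the other gene lists it was chosen with earlier results of these data known, so such shares are descriptions and not support. All 7 lay below both controls on each A3 array, as 21.5% of all probe sets did. Of the 7, 4 were shifted on both arrays and 3 low on A3-1 only, against 2.89% of all probe sets for A3-1 only. The 2 called were STZ and COR15A. COR15A and COR15B encode chloroplast proteins that protect membranes during freezing. COR15A read 45.7 and 155.6 units on the A3 arrays, 559.0 and 819.9 in line 4, and 1840.0 and 1299.6 in the control, and fell by 4.20 ± 0.56 on the log2 scale (limma adjusted p = 0.0432). COR15B read 47.2 and 402.2 units, 565.2 and 762.2, and 1682.7 and 1260.6 on the same arrays, a difference that did not pass for the pair (-3.40 ± 0.94, adjusted p = 0.201). COR15A and COR15B are close copies, so signal shared between their probe sets cannot be told apart. The dehydrin gene LTI30 read 129.3 and 284.3 units on the A3 arrays, 690.8 and 733.8 in line 4, and 944.6 and 784.8 in the control (-2.17 ± 0.37, limma adjusted p = 0.0741), and the dehydrin gene COR47 698.9 and 1103.5, 1336.9 and 1360.5, and 2059.1 and 1773.5 (-1.12 ± 0.24, adjusted p = 0.124). A3-1 lay below A3-2 in each of the 7 at a limma adjusted p under 0.05, with log2 differences from -0.66 for COR47 to -5.88 for AT4G33980. The list median was -4.95 on A3-1 and -1.60 on A3-2, against 0.06 and 0.03 over all probe sets. Over the pair it was -3.10, against 0.05, a value that rests more on A3-1 than on A3-2.

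Calcium sensor genes split. None of the 6 measured calmodulin and calmodulin-like genes passed the test of the pair against the control (1.1% of all probe sets fell and 0.205% rose). Of the 6, 2 were shifted low on both A3 arrays, against 1.8% of all probe sets. CML38, a calmodulin-like gene induced by wounding and low oxygen, read 18.1 and 145.1 units on the A3 arrays, 653.6 and 631.5 in line 4, and 542.3 and 665.3 in the control (-3.55 ± 0.91, limma adjusted p = 0.180). The gene named CML23 read 12.0 and 26.2 units, 43.1 and 42.8, and 98.0 and 104.9 on the same arrays (-2.52 ± 0.39, adjusted p = 0.0555). In CML38 the A3 arrays differed from each other by -3.003 on the log2 scale, A3-1 minus A3-2 (limma adjusted p = 3.67e-06). AT2G41090 (CML10) lay on the other side, at 257.6 and 245.0 units on the A3 arrays, 1078.3 and 1004.3 in line 4, and 131.7 and 149.0 in the control (0.84 ± 0.15, adjusted p = 0.0884).

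The filter on low means left out some genes because their A3 values were near 0. Of 9098 probe sets left out, 9 read at least 50 units on both controls and lay low on both A3 arrays, and 6 read at least 50 units on both A3 arrays and lay high. They were picked by these values and are described without a test. The 5 low ones with 1 gene were the calmodulin-like genes CML37 and AT3G01830 (CML40), the ERF-family gene AT5G52020, the VQ-motif gene AT2G22880 and the matrix metalloprotease gene AT1G24140. CML37 read 0.5 and 0.9 units on the A3 arrays, 73.3 and 82.9 in line 4, and 50.4 and 54.2 in the control. AT2G22880 read 1.7 and 2.2 units, 105.6 and 99.3, and 95.3 and 121.8 on the same arrays, and AT5G52020 8.3 and 1.2, 95.3 and 90.3, and 74.6 and 97.6. AT3G01830 read 0.3 and 2.1 units on the A3 arrays, 176.7 and 164.8 in line 4, and 51.6 and 56.4 in the control. The 1 high one with 1 gene was AT4G01410, at 62.4 and 56.5 units on the A3 arrays and 30.1 and 23.9 in the control. List members left out but outside this choice could also lie high. CML30 read 58.8 and 40.2 units on the A3 arrays and 24.1 and 28.1 in the control. XTH33 read 63.8 and 33.6 units on the A3 arrays and 9.4 and 8.1 in the control.

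Shared rises were fewer and smaller. AT3G05900, annotated as a neurofilament-like protein, read 295.6 and 262.1 units on the A3 arrays, 91.3 and 85.7 in line 4, and 79.0 and 96.7 in the control, which made a rise of 1.67 ± 0.18 on the log2 scale (SE, limma adjusted p = 0.0221). AT5G03120 read 242.1 and 232.7 units, 99.7 and 97.0, and 69.1 and 85.7 on the same arrays (1.62 ± 0.17, adjusted p = 0.0222). BZIP61, a bZIP transcription factor, read 228.4 and 190.9 units on the A3 arrays, 50.2 and 50.3 in line 4, and 73.4 and 81.9 in the control (1.43 ± 0.17, limma adjusted p = 0.0325). In BZIP61 and AT3G05900 only the A3 arrays stood high, while in AT5G03120 line 4 also lay above both controls, though below the A3 arrays. AT5G22580, of the stress-responsive A/B barrel family, rose by 1.52 ± 0.18 (limma adjusted p = 0.0325) and AT3G16670 by 1.43 ± 0.18 (adjusted p = 0.0358), and in both line 4 also lay above the control arrays. AT5G25280, a serine-rich protein gene, read 685.7 and 554.0 units on the A3 arrays, 343.1 and 432.4 in line 4, and 269.3 and 234.5 in the control (1.29 ± 0.17, adjusted p = 0.0430).

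The largest shared high values did not pass the test, and in these genes the A3 arrays or the controls lay far apart. AT5G12050 read 758.9 and 239.7 units on the A3 arrays, 44.1 and 50.2 in line 4, and 64.1 and 70.1 in the control (2.67 ± 0.52, limma adjusted p = 0.102). AT5G62280 read 405.2 and 78.0 units, 30.9 and 34.9, and 29.2 and 15.5 on the same arrays (3.06 ± 0.78, adjusted p = 0.177). In both, A3-1 was the higher, by 1.66 and 2.38 on the log2 scale (limma adjusted p = 0.000162 and 0.00266). AT1G69570, which encodes the cycling DOF factor CDF5, read 160.1 and 64.8 units on the A3 arrays, 33.4 and 28.1 in line 4, and 8.7 and 27.3 in the control (2.72 ± 0.66, adjusted p = 0.160). QQS, an Arabidopsis orphan gene that acts on starch content, was higher on A3-2, with 83.2 and 167.1 units on the A3 arrays, 45.1 and 45.5 in line 4, and 26.3 and 29.1 in the control (2.09 ± 0.35, adjusted p = 0.0664). AT3G25150 read 25.7 and 144.4 units on the A3 arrays, 112.0 and 125.1 in line 4, and only 11.1 and 2.6 in the control, near the low end of the array (3.50 ± 1.02, limma adjusted p = 0.219).

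**Figure D3:**
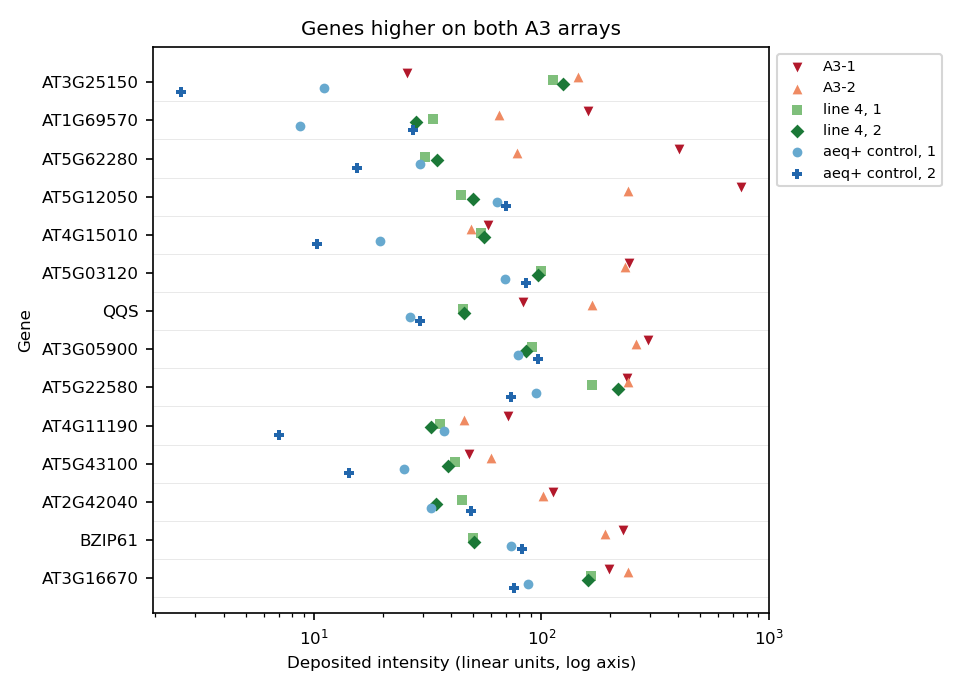
Deposited intensity on each of the 6 arrays for the 14 genes that lay furthest above the control on both A3 arrays (linear units on a log axis; 1 point an array). BZIP61, AT3G05900 and AT5G03120 have both A3 points close together and right of all others, while AT5G62280 and AT5G12050 have A3-1 far right of A3-2.

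A3-1 and A3-2 were then set against each other in a limma fit of all 6 arrays in 4 groups, in which the lone A3 arrays are assumed to vary like the control and line 4 pairs. A total of 1162 probe sets were higher (8.51%) and 1199 lower (8.79%) on A3-1 than on A3-2. Neither arm of this comparison has a replicate, so its p-values rest on the spread of other groups. For most genes of 1 array described below, being far apart on the A3 arrays and passing this test were conditions of being named. GI, WES1, EXPA8, EXPA4 and EXLA1 were named as members of gene lists instead. The differences and p-values of all these genes are descriptions and not support. Of the shared groups, 104 of the 246 low and 21 of the 71 high probe sets differed between the A3 arrays. Each arm is 1 array, and A3-1 carries the conflicting labels, so a difference of genotype and one of sample cannot be told apart.

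The genes low on A3-1 only included members of the cold and clock lists. COR27 and AT4G33980 (COR28) encode small proteins that are induced by cold and act on the clock and on freezing tolerance. AT4G33980 read 4.0 units on A3-1 and 235.8 on A3-2, 165.8 and 136.7 in line 4, and 244.0 and 282.4 in the control (A3-1 minus A3-2 -5.88 on the log2 scale, limma adjusted p = 1.99e-07). COR27 read 5.3 and 230.5 units on the A3 arrays, 141.2 and 137.5 in line 4, and 288.9 and 266.2 in the control (A3-1 minus A3-2 -5.44, adjusted p = 1.45e-07). In both genes A3-1 was by far the lowest array, and line 4 also lay below both controls. A3-2 lay within 1.3-fold of the control mean in both. GI, a clock gene that promotes flowering, read 85.5 and 305.8 units on the A3 arrays, 314.2 and 318.4 in line 4, and 333.4 and 322.0 in the control (-1.84, limma adjusted p = 1.07e-05). AT1G07050, which encodes a CCT-domain protein, read 4.1 and 95.6 units, 75.4 and 67.5, and 152.0 and 143.8 on the same arrays (-4.54, adjusted p = 2.92e-06). The other 2 measured clock-list genes, AT5G52660 and AT4G01280, lay no further than 0.42 from the control on the log2 scale on either A3 array.

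The other genes named as the lowest on A3-1 only were not in the lists. AT4G34950, of the major facilitator transporters, read 6.8 and 331.8 units on the A3 arrays, 227.3 and 192.2 in line 4, and 338.1 and 393.8 in the control (A3-1 minus A3-2 -5.61 on the log2 scale, limma adjusted p = 1.45e-07). AT1G56300, a DnaJ-domain chaperone gene, read 23.4 and 546.3 units, 580.1 and 578.9, and 751.2 and 658.3 on the same arrays (-4.55, adjusted p = 1.45e-07). AT4G33985, AT5G62360 and AT4G30650 differed by -4.10, -4.23 and -3.53. AT5G62360 belongs to the invertase and pectin methylesterase inhibitor family and AT4G30650 to the small hydrophobic proteins induced by low temperature and salt. AT4G30650 still read 88.4 units on A3-1, against 1021.1 on A3-2, 877.6 and 1040.1 in line 4 and 1495.8 and 1240.7 in the control.

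Genes high on A3-1 only included auxin-response and cell wall genes. Auxin is the plant hormone of growth and tropisms, and 3 of the 6 measured auxin-list genes were shifted on A3-1 only, all upwards, against 2.14% of all probe sets. IAA29, an early auxin-response repressor also induced by shade and warmth, read 425.2 units on A3-1 and 55.1 on A3-2, 20.3 and 21.3 in line 4, and 39.7 and 25.4 in the control (A3-1 minus A3-2 2.95 on the log2 scale, limma adjusted p = 0.000272). GH3.3 and WES1 (GH3.5) encode enzymes that join auxin to amino acids. GH3.3 read 322.4 and 66.8 units on the A3 arrays, 90.4 and 106.8 in line 4, and 65.5 and 70.8 in the control (2.27, adjusted p = 4.66e-05), and WES1 626.0 and 172.2, 121.1 and 141.5, and 199.7 and 201.2 (1.86, adjusted p = 3.69e-05). For GH3.3 and WES1 the A3-2 value lay within the range of the line 4 and control arrays, while for IAA29 it lay above them. The expansin genes EXPA8 and EXPA4, whose products loosen cell walls, read 678.7 and 244.3 units and 248.7 and 139.0 units on A3-1 and A3-2, against 220.3 and 198.4 and 100.3 and 94.7 in the control. Their A3-1 minus A3-2 differences were 1.47 and 0.84 (limma adjusted p = 0.000164 and 0.00818). Expansin-like EXLA1 went the other way, with 289.0 units on A3-1 and 1042.5 on A3-2, 819.9 and 821.4 in line 4, and 724.0 and 857.2 in the control. Of the 12 measured expansins 2 were high and 1 was low on A3-1 only, against 2.14% and 2.89% of all probe sets.

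The remaining named genes of this class had roles outside these lists. MGL, methionine gamma-lyase of amino acid breakdown, read 134.6 and 23.2 units on the A3 arrays, 35.8 and 28.6 in line 4, and 27.1 and 25.3 in the control (A3-1 minus A3-2 2.54, limma adjusted p = 0.000403). AT4G25260, another gene of the invertase and pectin methylesterase inhibitor family, read 374.3 and 109.4 units, 61.9 and 66.3, and 79.5 and 81.7 on the same arrays (1.77, adjusted p = 8.31e-05). AT5G66590, AT1G21050, AT5G02540 and AT5G60840 differed between the A3 arrays by 1.62, 1.50, 1.52 and 1.62, and their A3-2 values all stood 1.4-fold to 1.7-fold above the control mean.

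A3-2 alone was high for fewer genes and by less. SCPL34, a serine carboxypeptidase-like protein gene, read 171.1 units on A3-1 and 462.3 on A3-2, 163.5 and 177.2 in line 4, and 121.0 and 139.9 in the control (A3-1 minus A3-2 -1.43 on the log2 scale, limma adjusted p = 0.000172). AT1G23030 (PUB11), a U-box and ARM repeat ubiquitin ligase gene, read 146.3 and 412.2 units, 137.2 and 138.6, and 113.8 and 122.4 on the same arrays (-1.49, adjusted p = 7.93e-05). AT1G50040 read 29.1 and 157.2 units on the A3 arrays, 36.9 and 66.7 in line 4, and 21.1 and 31.3 in the control (-2.43, limma adjusted p = 0.00371). In these 3 genes A3-2 stood above all other arrays. AT2G21640, a marker gene of oxidative stress, read 44.0 and 97.4 units on the A3 arrays, 116.1 and 122.6 in line 4, and 34.8 and 41.9 in the control, so that A3-2 came near line 4 and A3-1 near the control (-1.15, adjusted p = 0.00518). AT1G22330, AT1G06830, AT4G35320 and the plastid gene rpoB completed the group, with log2 differences of A3-2 from the control of 1.87, 1.71, 1.35 and 1.42.

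Low on A3-2 only were 2 genes that lay high in line 4. AT1G10340, an ankyrin repeat protein gene, read 52.0 and 20.9 units on the A3 arrays, 358.4 and 331.3 in line 4, and 76.6 and 85.9 in the control (A3-1 minus A3-2 1.31, limma adjusted p = 0.000723). AT2G16005, of the lipid-recognition ML domain family, read 53.0 and 29.4 units, 285.7 and 276.8, and 96.8 and 84.0 on the same arrays (0.85, adjusted p = 0.00729). In both, the A3-1 value also lay below the controls, by less than 2-fold. AT4G16260, a beta-1,3-glucanase gene, read 256.9 and 70.6 units on the A3 arrays, 212.6 and 186.0 in line 4, and 188.1 and 224.0 in the control (1.86, limma adjusted p = 7.70e-05), and AT1G67865 190.6 and 52.4, 160.7 and 190.0, and 153.5 and 154.5 (1.86, adjusted p = 5.94e-05). ATSPS4F, a sucrose-phosphate synthase gene, and AT1G02810, a pectin methylesterase gene, lay at 50.3 and 34.8 units on A3-2 with A3-1 at 83.7 and 59.3, and were also below both controls on A3-1.

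Of the 6 probe sets on opposite sides of the controls, which by this choice lie at least 4-fold apart on the A3 arrays, 4 had 1 gene and enough signal to be named. AT3G02480, a late embryogenesis abundant protein gene of the abscisic acid response, read 11.1 units on A3-1 and 127.1 on A3-2, 36.5 and 24.1 in line 4, and 38.6 and 21.8 in the control (A3-1 minus A3-2 -3.52 on the log2 scale, limma adjusted p = 0.000708). AT4G16563, an aspartyl protease gene, read 29.8 and 209.9 units, 82.4 and 74.2, and 63.2 and 65.6 on the same arrays (-2.82, adjusted p = 2.03e-05). OSM34, an osmotin-like defence protein gene, ran the other way with 620.1 units on A3-1 and 79.9 on A3-2, 581.3 and 504.3 in line 4, and 248.1 and 208.2 in the control (2.96, limma adjusted p = 4.73e-06). AT1G65490 did so too, with 686.0 and 73.5 units on the A3 arrays, 412.0 and 434.8 in line 4, and 196.6 and 245.0 in the control (3.22, adjusted p = 3.16e-06). In OSM34 A3-1 lay near line 4 and A3-2 below every other array.

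**Figure D4:**
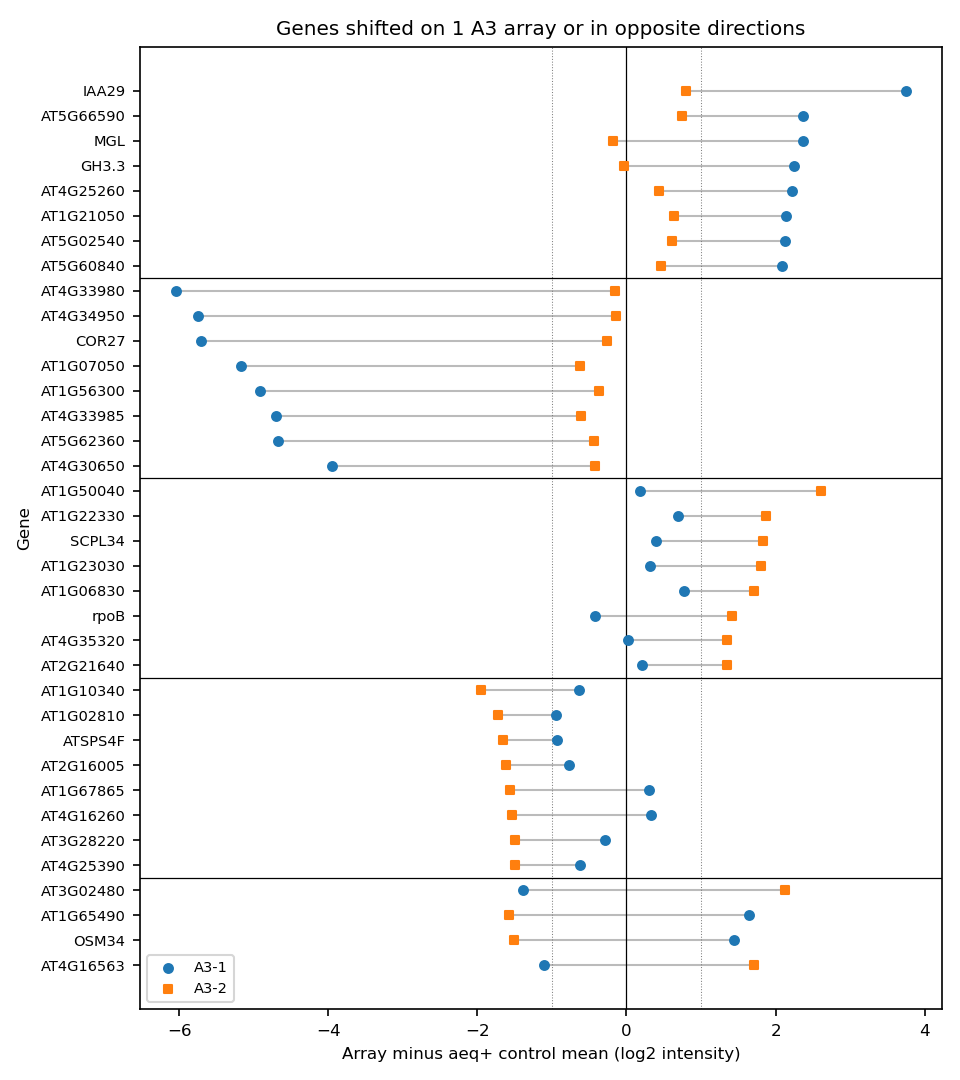
Log2 difference of A3-1 (circles) and A3-2 (squares) from the control mean for 36 genes, in blocks from top to bottom of A3-1 only higher, A3-1 only lower, A3-2 only higher, A3-2 only lower and opposite sides. Dotted lines mark 2-fold; the A3-1 only lower block reaches -6.04 on A3-1 while its A3-2 points stay within 0.63 of 0.

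Against line 4 the A3 pair was lower at 363 probe sets (2.66%) and higher at 82 (0.601%) by limma, with 2 arrays on each side. Of the 246 shared low probe sets 158 differed from line 4, and of the 71 shared high ones 28. Of the 150 falls against the control 125 were also called lower than line 4, and of the 28 rises 21 were called higher. Both comparisons share the A3 arrays, so these overlaps are not independent. Without either line 4 array, 25 and 37 probe sets were called against line 4, all of them lower on the A3 pair.

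The salicylate and pipecolate list held genes on which line 4 and the A3 arrays parted. These genes mark systemic acquired resistance, a defence state of whole plants. The list named 24 loci, and only 6 were measured. None of the 6 passed against the control (1.1% of all probe sets fell and 0.205% rose). AT5G03350, a legume-lectin-like gene, read 75.4 and 83.1 units on the A3 arrays, 1330.7 and 1385.1 in line 4, and 59.0 and 58.4 in the control, and the pair lay 4.10 below line 4 on the log2 scale (limma adjusted p = 0.00187). RING1, a ubiquitin ligase gene of defence-related cell death, read 63.9 and 59.1 units, 604.2 and 545.1, and 83.3 and 104.7 on the same arrays (-3.22 against line 4, adjusted p = 0.00349). In these genes both A3 arrays lay within 2-fold of the control mean, and line 4 far above. The A3 arrays lay above both controls in AT5G03350 and below both in RING1. AT5G52810 (SARD4), CHI and GRX480 differed from line 4 by -3.16, -2.80 and -2.67 (limma adjusted p = 0.00597, 0.0146 and 0.0146), and SAG101 by -1.02 (adjusted p = 0.132).

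No member of the other gene lists was called. The medians of the pair against the control were -0.03 for 7 tubulins, 0.03 for 8 aldehyde dehydrogenases, 0.13 for 8 IQD calmodulin-binding proteins, 0.16 for 6 RALF-like peptides and -0.07 for 69 genes encoded in the plastid, against 0.05 over all probe sets. The A3 arrays could lie on different sides: the tubulin medians were -0.23 on A3-1 and 0.36 on A3-2, and TUB5, TUB9 and TUA6 were lower on A3-1 than on A3-2 by 1.01, 0.89 and 0.78 on the log2 scale (limma adjusted p = 0.000267, 0.000441 and 0.00168). In these lists IQD22 was shifted low on A3-2 only, against 1.03% of all probe sets. High on A3-2 only were 3 of the 69 plastid genes, against 0.63% of all probe sets. Among these, the control arrays lay far apart for psbN (181.7 and 70.5 units) and rpoB (22.6 and 49.1 units). Among 12 expansins, EXLA3 lay low on both A3 arrays, at 16.8 and 25.8 units against 59.6 and 58.9 in the control (-1.51 ± 0.28, limma adjusted p = 0.0940). XTH18, a cell wall xyloglucan enzyme gene, read 97.9 and 63.7 units on the A3 arrays, 271.9 and 237.7 in line 4, and 183.7 and 209.8 in the control (-1.31 ± 0.24, adjusted p = 0.0926), while the other 5 of its list lay within 0.35 as a mean of the pair. By array XTH16 lay at 0.82 on A3-2 and XTH20 at -0.62 on A3-1. Among 5 glutaredoxins, AT4G15690 read 13.3 and 79.2 units on the A3 arrays, 23.7 and 18.6 in line 4, and 56.6 and 58.2 in the control, so that A3-1 lay with line 4 and A3-2 above the control.

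**Figure D5:**
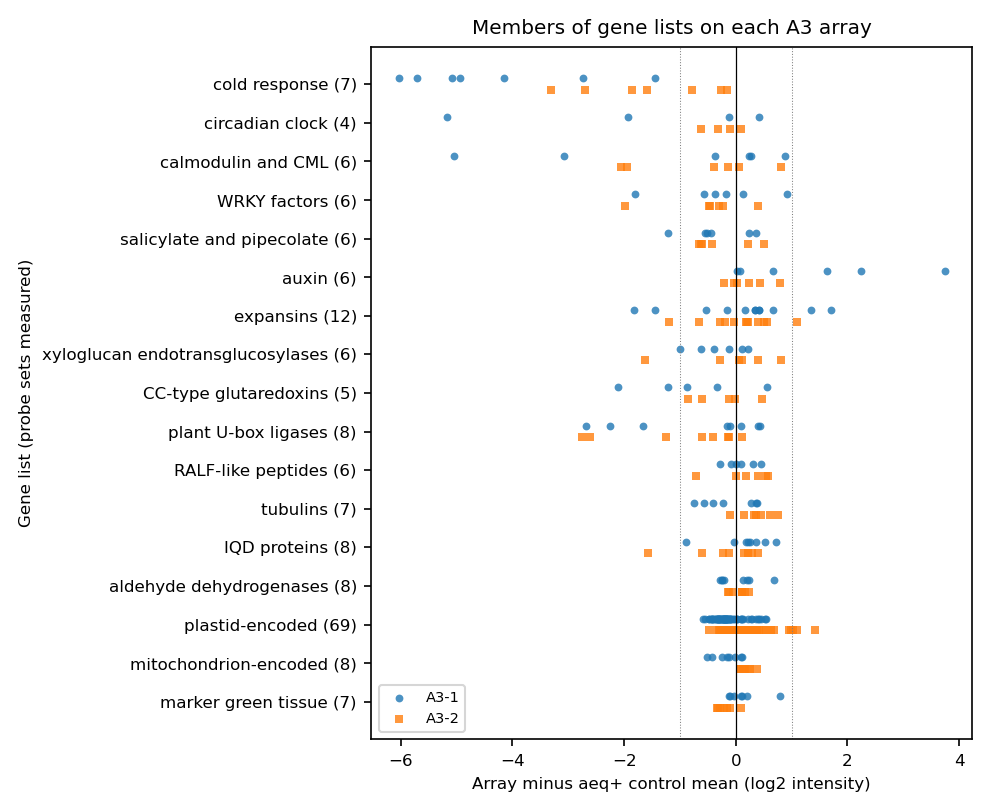
Log2 difference of A3-1 (circles) and A3-2 (squares) from the control mean for each measured member of the gene lists with at least 4 members, with the number of members in brackets. Dotted lines mark 2-fold; the cold response members all lie left of 0 on both arrays, and the tubulin and aldehyde dehydrogenase members all lie within 2-fold of it.

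Green tissue markers were bright on all 6 arrays. The 7 measured green tissue genes summed to 19101.5 and 15891.1 units on A3-1 and A3-2, 16138.1 and 15910.9 in line 4, and 20186.6 and 17148.9 in the control, and none was shifted on either A3 array. The root hair expansins EXPA7 and EXPA18 summed to 76.2 and 60.5 units on the A3 arrays and 77.4 and 72.7 in the control. FMA, a guard cell lineage regulator, read 66.5 and 37.0 units on the A3 arrays, 30.5 and 26.5 in line 4, and 34.5 and 39.1 in the control, so A3-1 was the highest array. No flower or seed marker was named among the probe sets, and the CDPK6 transcript and the transgenes were not analysed here.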

How the data were processed

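RNA of whole seedlings was hybridised to Affymetrix ATH1 arrays, 1 array a sample. The values deposited by the authors are intensities on a linear scale; how the probes of a set were summarised is not given in the sources. On every array the 2% trimmed mean was 100.01, which shows a common scaling. Of 22810 probe sets 64 control sets were left out. The 126 values of 0 were set to 0.1, values were taken to log2, and the lowest 40% by mean over the 6 arrays were dropped to leave 13648. Models were fitted in limma 3.58.1 under R 4.3.3 (lmFit, then eBayes allowing a trend of variance with intensity), and p-values were adjusted by Benjamini-Hochberg. The pair was compared with the control and with line 4 in separate fits of 4 arrays. The labels do not say whether pools were grown apart, so each p-value reflects only how these pools varied, which may be technical, and the number of arrays limits the precision.

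The platform table gave 1 gene to 7350 of the probe sets kept, several to 279 and none to 6019; symbols were updated through the TAIR10.1 gene table, used for names only. Named genes had 1 gene and at least 50 units in the brighter group. They were the 14 largest shared shifts each way, the 8 largest each way of 1 A3 array alone that differed between the A3 arrays, up to 6 opposite ones, the 6 limma calls each way with the smallest p, and up to 8 members of each gene list. Members, lists and rules were chosen with earlier results of these data known; the plastid and mitochondrial lists were corrected after the files were read. Tested on simulated data (13648 probe sets, 200 of them changed), the fit of the pair against the control recovered 0% of 2-fold and 47% of 4-fold changes with 1 false call, and A3-1 against A3-2 31%, 78% and 5. Alternatives were other filters, a pseudocount of 16, quantile normalization, no trend, all 6 arrays together, a replicate block and single arrays left out.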

Additional observations from a re-analysis of the deposited data

Results flagged for a closer look

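The A3 pair and line 4 lay on opposite sides of the control arrays, every array on its side, and differed from each other by limma, at 13 named genes. The share of all probe sets that met this rule is not given here. Named genes were chosen for their A3 values or as list members, so the 13 are examples and no measure of excess. Log2 differences of the A3 pair from line 4 are given. In genes that fell in the A3 pair against the control they were -4.32 for AT4G37290 (adjusted p = 0.00468), -2.85 for PUB23 (0.00365), -3.21 for AT3G02840 (0.00555), -2.51 for AT1G15010 (0.00480) and -2.31 for WRKY53 (0.00660). In genes whose difference from the control did not pass they were -3.39 for AT1G10340 (0.0301), -2.83 for AT2G16005 (0.0181), -3.22 for RING1 (0.00349), -2.67 for GRX480 (0.0146), -3.16 for AT5G52810 (0.00597) and -1.69 for XTH18 (0.0396). Upwards the differences were 2.06 for BZIP61 (0.00803) and 1.13 for GH3.17, an auxin-conjugating enzyme gene (0.0330). In AT4G37290, PUB23 and AT1G15010 line 4 lay only 0.22, 0.13 and 0.14 above the control. The cause was not tested.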

How the results depend on the processing

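The A3 pair against the control gave 178 calls, and 84 with no filter, 115 with quantile normalization, 97 without the variance trend, 516 with all 6 arrays in 3 groups and 450 with the replicate block; leaving out 1 array gave 0 to 3415. All 178 were among those of the 6-array fit and of the block, and 75 among those with no filter. Replicate numbers did not pair the samples (the deviations of A3 and control arrays correlated at 0.001), so the block says nothing of the size of the effect. Against line 4, 445 calls became 1042 with 6 arrays, 235 with the replicate block and 25 to 5103 with 1 array left out. A3-1 against A3-2 gave 2361 calls, 1559 with no filter and 1436 without the trend. Shared shifts numbered 317, and 1113 with no filter and 119 at 3-fold. Shifts of A3-1 only numbered 687, 1891 and 304 in the same order, those of A3-2 only 226, 1234 and 50, and opposite ones 6, 146 and 0. With the 60% filter shifts of A3-2 only numbered 127, and with the pseudocount those of A3-2 only and opposite shifts numbered 122 and 3. The other settings kept these totals within 1.5 times, but shared high shifts numbered 71 and 41 with the 60% filter or 36 with the pseudocount, and A3-1 only high ones 292 and 176 with the 60% filter.

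Of 156 named results of the pair 23 passed, and all 23 were lost without a control array. AT3G02480 was 2.13 without A3-1 and -1.39 without A3-2, against 0.37 with all 4 arrays, and TUB5 0.45 and -0.56, against -0.06. The 36 named A3-1 minus A3-2 results were chosen for passing, and 3 were lost under some setting. Where fits left 1 array in a group, it was assumed to vary like the other group. Signals below about 30 units carry little precision, as in the A3 values of the deepest falls.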
